A study of Mus musculus with 3 samples.

Results

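The TLE/Groucho corepressors are a family of nuclear proteins, and their genes were taken as the 6 rows whose gene name was Tle1, Tle2, Tle3, Tle4, Aes or Tle6, of 23997 gene rows in all. All 6 had a value in every library and passed the filter on low values used below, a mean of at least 1 FPKM (a fragment number divided by transcript length and by the library's mapped fragments). The RNA came from colonic macrophages of untreated C57BL/6 males, sorted as cells positive for CD64, low for Ly6C and negative for Siglec-F. The Tle3cKO mice carried Tle3f/f with Lyz2-Cre and the Tle4cKO mice carried Tle4f/f with Lyz2-Cre, while the WT mice carried Lyz2-Cre alone, so the Cre was present in every group. Lyz2-Cre expresses Cre recombinase from the lysozyme 2 locus in myeloid cells, and other cells of these mice keep their floxed alleles whole. The mice were 9 weeks old by the extract protocol and 8.9 weeks old by the sample's age label. Cells of 3 Tle3cKO, 4 Tle4cKO and 4 WT mice were pooled by genotype and sorted at the same time, which gave 1 library for each group. No replicate spread was measured, so every difference below compares one library with another, without a test, a standard error or a p-value.

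Full-length TLE proteins do not bind DNA themselves. They form tetramers through a glutamine-rich N-terminal domain, are brought to genes by DNA-binding factors through a C-terminal WD40 domain, and repress transcription there, in part with histone deacetylases. Partners of this kind include the HES and HEY factors of Notch signalling, the RUNX factors and the TCF/LEF factors of Wnt signalling, in which TLE proteins hold target genes off until beta-catenin takes their place. Tle1, Tle2, Tle3 and Tle4 encode full-length proteins. Aes, now named Tle5, encodes a short protein that holds the N-terminal part without the WD40 domain and can counteract full-length members. Tle6 encodes a divergent member known for its role in the maternal protein complex of the egg and early embryo.

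The genes lie at 4 places in the mouse genome (files' coordinates, build mm10; gene identifiers from GENCODE release M21 of the same build). Tle3 (ENSMUSG00000032280.16) spans positions 61372366 to 61418497 of chromosome 9 on the plus strand, and its longest protein-coding transcript has 20 exons. Tle4 (ENSMUSG00000024642.17) spans 14448072 to 14597983 of chromosome 19 on the minus strand, also with 20 exons in the longest coding transcript. Tle1 (ENSMUSG00000008305.18) spans 72109945 to 72200893 of chromosome 4 on the minus strand. Aes (ENSMUSG00000054452.10), Tle2 (ENSMUSG00000034771.15) and Tle6 (ENSMUSG00000034758.12) lie side by side on chromosome 10, within 41586 bases, in the order 81559444 to 81566371, 81575287 to 81590845 and 81590905 to 81600900. Tle2 on the plus strand and Tle6 on the minus strand end 58 bases apart in GENCODE. Other GENCODE genes overlap the spans of Tle1 (Gm11250) and Tle2 (Gm15917). The strand setting of the counting is unknown, so reads of these pairs may not be told apart.

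The 250 bases before the most upstream RefSeq start were examined for the 5 members that RefSeq's promoter table (GRCm38.p6, the assembly of mm10) held under their names, which were all except Aes. The upstream stretches of Tle3, Tle4, Tle6 and, for contrast, Tle1 are shown because the first 3 of them share a palindromic stretch of 10 bases around the E-box CACGTG, a site for several basic helix-loop-helix factors. Capitals mark CACGTG, each stretch reads 5′ to 3′ on the gene's own strand, and bases inside the gene's own transcribed span in GENCODE are left out. The stretches lie at chr9:61372116-61372365 on the plus strand for Tle3, chr19:14598184-14598433 on the minus strand for Tle4, chr10:81601074-81601150 on the minus strand for Tle6 and chr4:72200920-72201143 on the minus strand for Tle1.
Tle3: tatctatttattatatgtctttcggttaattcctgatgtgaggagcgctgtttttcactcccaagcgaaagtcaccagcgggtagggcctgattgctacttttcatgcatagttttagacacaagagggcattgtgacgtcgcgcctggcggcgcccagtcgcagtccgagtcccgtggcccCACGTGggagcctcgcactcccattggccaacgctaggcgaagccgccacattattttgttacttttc
Tle4: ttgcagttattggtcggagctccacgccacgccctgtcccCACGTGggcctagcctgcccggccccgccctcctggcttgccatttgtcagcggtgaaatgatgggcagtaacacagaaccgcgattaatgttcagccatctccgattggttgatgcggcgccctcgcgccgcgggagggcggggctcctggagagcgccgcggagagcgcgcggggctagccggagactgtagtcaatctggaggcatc
Tle6: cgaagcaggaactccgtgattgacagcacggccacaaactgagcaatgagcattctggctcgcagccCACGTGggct
Tle1: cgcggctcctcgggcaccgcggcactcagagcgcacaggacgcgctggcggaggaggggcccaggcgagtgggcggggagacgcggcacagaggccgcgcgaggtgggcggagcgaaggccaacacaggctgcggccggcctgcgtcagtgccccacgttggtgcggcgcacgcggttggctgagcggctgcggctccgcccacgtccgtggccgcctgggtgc

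The match began 68 bases before the RefSeq start in Tle3, 210 bases before it in Tle4 and 183 bases before it in Tle6. In each it stood inside the same palindrome, CCCACGTGGG. The window of Tle6 held another CACGTG nearer to the start, outside the stretch shown and without these flanks. The 6-base E-box, whose reverse complement is the same word, was present in 6.02% of the 32851 promoter windows of this length in the table, and the 10-base palindrome in 30 of them (0.0913%), which belong to 29 of 27025 genes. The windows of Tle1 and Tle2, and the second listed windows of Tle4 and Tle6, held neither. The motif was chosen after the sequences were seen, so its frequency is a description. The promoters differed in base composition, with 52.4% G and C in the Tle3 stretch, 65.2% in that of Tle4 and 77.2% in that of Tle1. The GC box GGGCGG, searched on both strands, was found 0 times in the 250-base window of Tle3, 2 times in that of Tle4 and 3 times each in those of Tle1 and Tle2, and is in 32.7% of all windows. None of the 7 windows of the family held TATAAA, which is in 12.4% of all windows on either strand.

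Totals were 569961 FPKM in the Tle3cKO-labelled library, 598023 in Tle4cKO and 610714 in WT. How many fragments were sequenced is unknown. By the smallest steps in the values, relative depth was 0.968 for the Tle3cKO-labelled library and 1.21 for Tle4cKO, with WT set to 1. The CD64 gene Fcgr1 was at 36.0 FPKM in the Tle3cKO-labelled library, 39.2 in Tle4cKO and 33.3 in WT. Lists of cell type markers summed to between 4201 and 4773 FPKM for macrophages in the 3 libraries, and to between 220 and 270.4 for stromal cells, 97.5 and 275 for B and plasma cells, 4.59 and 12.1 for glia and 2.63 and 24.7 for epithelium, so RNA of other cells was present in each sort. Comparisons use the 11114 genes that passed the filter, and a log2 ratio is that of FPKM plus 1, which understates the differences of low genes.

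The family fell into abundant and scarce members, in the same way in all 3 libraries. Aes, Tle3 and Tle1 were the 3 highest, between 32.4 and 83.5 FPKM. Tle4 came next, between 5.80 and 11.0 FPKM. Tle2 and Tle6 were scarce, between 1.02 and 2.16 FPKM. In WT macrophages Aes was the highest, at 83.5 FPKM, a level above that of 90.8% of the genes tested in that library. Tle3 followed at 38.6 FPKM (above 80.7% of genes), Tle1 at 34.3 FPKM (above 78.8%) and Tle4 at 8.50 FPKM (above 44.6%). Tle2 was at 1.43 FPKM and Tle6 at 1.02 FPKM in WT, above 6.19% and 1.75% of the tested genes. FPKM is per transcript length, so these levels can be set side by side, although with 1 library a group it is not known which neighbours in the order differ by more than replicates would.

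**Figure D1:**
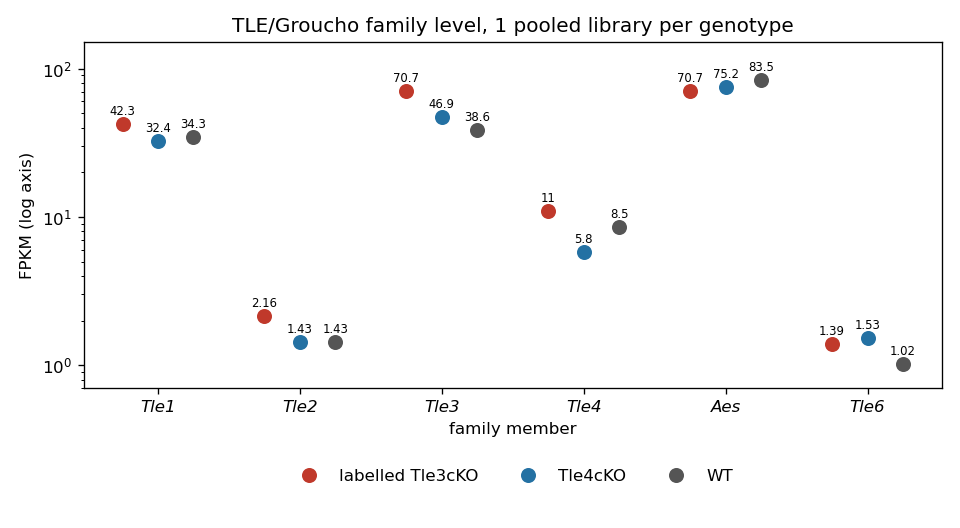
FPKM of the 6 family members on a log axis, with 1 point for each pooled library (the Tle3cKO-labelled library, Tle4cKO and WT, from left to right within a gene). Tle3 is highest in the Tle3cKO-labelled library at 70.7 FPKM, and Tle4 is lowest in Tle4cKO at 5.80 FPKM.

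Tle3, the gene targeted in Tle3cKO mice, was higher and not lower in the library that carries that label. It was at 70.7 FPKM in the Tle3cKO-labelled library, 46.9 FPKM in Tle4cKO and 38.6 FPKM in WT. The library that should hold the least Tle3 RNA held the most, 1.83 times the level of WT, with a log2 ratio of 0.86. Of the 11114 genes only 51 (0.459%) had a larger log2 ratio in this comparison, while the median gene was at -0.011. The value goes against the label, so directions drawn from that library, or from a comparison with it, rest on a label that its own target gene does not bear out. A gene-level value adds all exons, the labels do not name the floxed exons, and a transcript that lacks some exons still counts. Reads of the floxed exons alone were not analysed here, so a shortened transcript and an intact one cannot be told apart.

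Tle4, the gene targeted in Tle4cKO mice, was lowest in the Tle4cKO library but still present. It was at 5.80 FPKM in Tle4cKO and 8.50 FPKM in WT, which is 0.682 times the WT level and a log2 ratio of -0.48. In this comparison 271 genes (2.44%) had a lower log2 ratio. In the Tle3cKO-labelled library Tle4 was the highest of all 3, at 11.0 FPKM, a log2 ratio of 0.34 to WT. Set against that library, Tle4cKO had a log2 ratio of -0.82 for Tle4, and 104 of the tested genes (0.936%) were lower. Glial markers were also lowest in Tle4cKO. There 50.6% of all tested genes were below WT, as were both glial markers that passed the filter, Gfap and S100b. Together with Sox10 they summed to 12.1 FPKM in the Tle3cKO-labelled library, 4.59 in Tle4cKO and 11.5 in WT. Their part in the Tle4 value was not tested, and in bulk RNA fewer cells of a type and less RNA per cell cannot be told apart.

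The other full-length members address the question whether paralogues were higher where Tle3 or Tle4 was targeted. Tle1 was at 42.3 FPKM in the Tle3cKO-labelled library, 32.4 in Tle4cKO and 34.3 in WT. It was thus higher than WT in the Tle3cKO-labelled library, with a log2 ratio of 0.29, and close to WT in Tle4cKO, with a log2 ratio of -0.08. Tle2 was at 2.16 FPKM in the Tle3cKO-labelled library, 1.43 in Tle4cKO and 1.43 in WT, with log2 ratios of 0.38 and 0.0045 to WT. Tle3 was at 46.9 FPKM in Tle4cKO, above the 38.6 FPKM of WT, with a log2 ratio of 0.27, and 794 genes (7.14%) had a larger one. In Tle4cKO Tle3 was therefore the full-length member that was higher than WT by more than a few percent, with a difference of 8.29 FPKM, while the difference for Tle4 was -2.70 FPKM.

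Aes, the short member, was highest in WT. It was at 70.7 FPKM in the Tle3cKO-labelled library, 75.2 in Tle4cKO and 83.5 in WT, with log2 ratios to WT of -0.24 and -0.15. Aes was below WT in the Tle3cKO-labelled library, where Tle1, Tle2, Tle3 and Tle4 were all above it, although 9.65% of genes there had a lower log2 ratio. In Tle4cKO it was below WT as Tle1 and Tle4 were, and 19.5% of genes were lower. Tle6, next to Tle2 on chromosome 10, was at 1.39 FPKM in the Tle3cKO-labelled library, 1.53 in Tle4cKO and 1.02 in WT, with log2 ratios of 0.24 and 0.32. At so low a level its differences from WT were 0.363 and 0.503 FPKM.

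Counted over the family, 5 of the 6 members had a log2 ratio above 0 in the Tle3cKO-labelled library against WT, where 47.6% of all tested genes did. The exception was Aes. The median log2 ratio of the members was 0.32, beside -0.011 for all genes. In Tle4cKO against WT 3 of the 6 members were above 0, where 49.4% of all genes were, namely Tle3, Tle6 and, by 0.0045, Tle2, with a median of -0.04 beside -0.0026 for all genes. In Tle4cKO against the Tle3cKO-labelled library 2 of the 6 members, Aes and Tle6, were above 0, where 52.4% of all genes were, with a median of -0.38 beside 0.0093. The first and second of these comparisons share the WT library and the last shares a library with each. No member reached a 2-fold difference on the log2 scale in any comparison. A difference of that size was rare: upward it was seen in 0.216% of genes and downward in 0.207% for the Tle3cKO-labelled library against WT. The same shares were 0.162% and 0.486% for Tle4cKO against WT, and 0.207% and 0.522% when Tle4cKO was set against the Tle3cKO-labelled library.

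**Figure D2:**
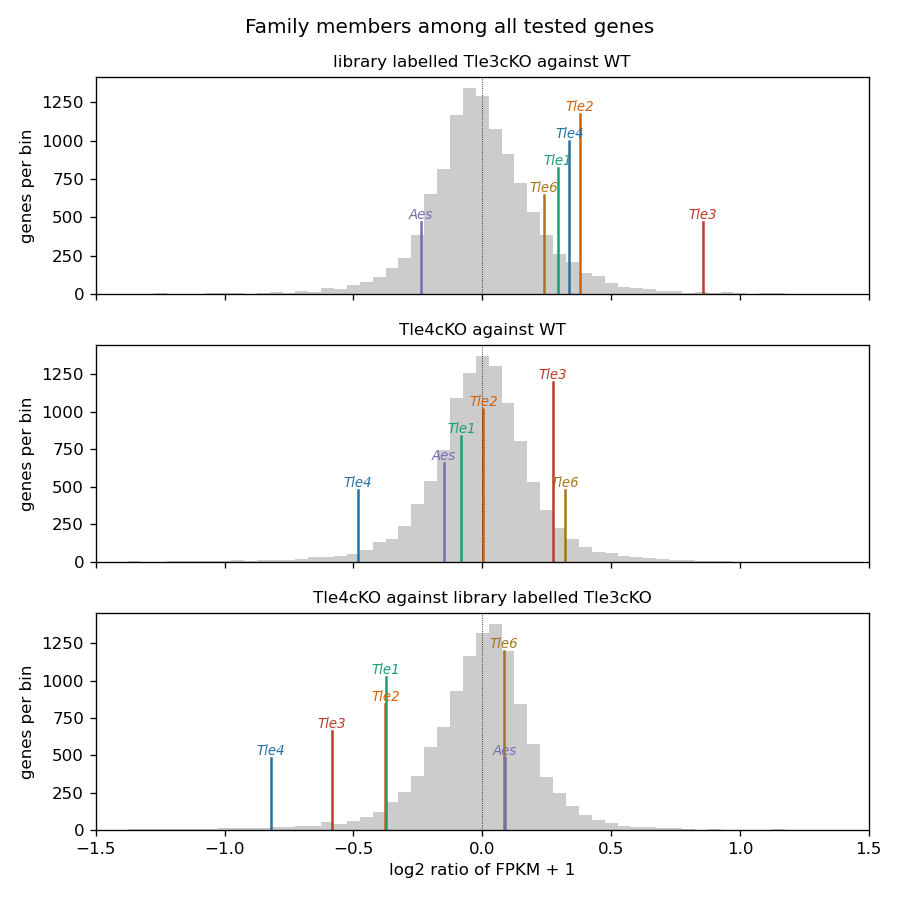
Log2 ratios of FPKM plus 1 for the 11114 tested genes (grey bars, number of genes per bin of 0.05; genes beyond the edges of the axis are not drawn) and for the 6 members (coloured lines, whose heights have no meaning), in the 3 comparisons. In the Tle3cKO-labelled library against WT, Tle3 stands at 0.86 and Aes, at -0.24, is the member below 0, and in Tle4cKO against WT Tle4 stands at -0.48.

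The make-up of the full-length pool was compared by the share of each member in the summed FPKM of Tle1 to Tle4, a measure that does not depend on how libraries are scaled to each other. The sum was 126 FPKM in the Tle3cKO-labelled library, 86.5 in Tle4cKO and 82.8 in WT. Tle3 held 56.1% of it in the Tle3cKO-labelled library, 54.2% in Tle4cKO and 46.6% in WT. Tle1 held 33.5%, 37.4% and 41.4% in the same 3 libraries, and Tle4 held 8.73%, 6.71% and 10.3%. The share of Tle3 was thus higher in the Tle3cKO-labelled library and in Tle4cKO than in WT, while the shares of Tle1 and Tle4 were lower in both. Tle2 held between 1.66% and 1.72% in all 3.

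Without Tle3 the remaining full-length members summed to 55.4 FPKM in the Tle3cKO-labelled library, 39.6 in Tle4cKO and 44.2 in WT. Without Tle4 they summed to 115 FPKM in the Tle3cKO-labelled library, 80.7 in Tle4cKO and 74.3 in WT. In Tle4cKO the members other than Tle4 therefore added up to more than in WT, and Tle3 was the source of that difference, since Tle1 differed from WT by -1.93 FPKM and Tle2 by 0.0076 FPKM. The ratio of Tle3 to Tle4 was 6.42 in the Tle3cKO-labelled library, 8.08 in Tle4cKO and 4.54 in WT. The short member Aes stood at 0.560 of the full-length sum in the Tle3cKO-labelled library, 0.870 in Tle4cKO and 1.01 in WT.

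**Figure D3:**
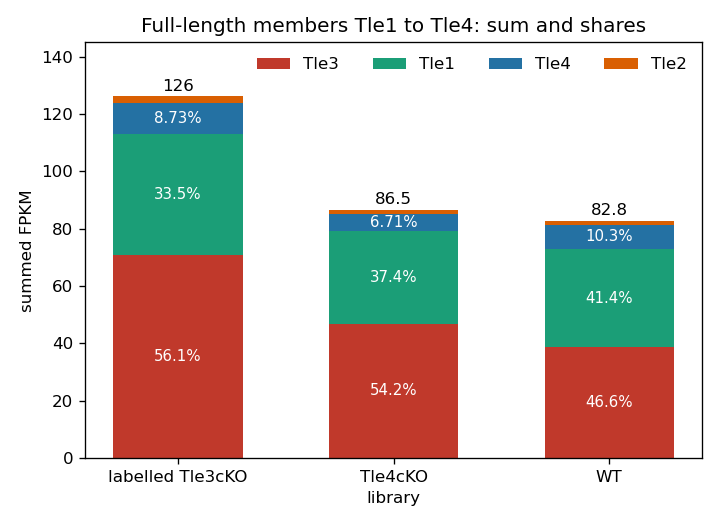
Summed FPKM of the full-length members Tle3, Tle1, Tle4 and Tle2 in each library, stacked from 0, with the sum above each bar and the share of each of the 3 larger members inside it. Tle3 takes 56.1% of 126 FPKM in the Tle3cKO-labelled library, 54.2% of 86.5 FPKM in Tle4cKO and 46.6% of 82.8 FPKM in WT.

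Markers of other cells also differed between the libraries in which Tle3 was high and low. Stromal markers summed to 270.4 FPKM in the Tle3cKO-labelled library, 253 in Tle4cKO and 220 in WT, the same order as Tle3. In each of the first 2 libraries 7 of the 8 stromal genes were above WT. Beside this count and those that follow, 47.6% of all tested genes were above WT in the Tle3cKO-labelled library and 49.4% in Tle4cKO. B and plasma cell markers summed to 131 FPKM in the Tle3cKO-labelled library, 275 in Tle4cKO and 97.5 in WT, with 6 of 6 above WT in both. Epithelial markers summed to 5.58 FPKM in the Tle3cKO-labelled library, 24.7 in Tle4cKO and 2.63 in WT, and the 4 of 8 that passed the filter were above WT in both. Macrophage markers summed to 4201 FPKM in the Tle3cKO-labelled library, 4432 in Tle4cKO and 4773 in WT, the reverse order of Tle3. This sum was carried by the complement genes C1qa, C1qb and C1qc, with C1qb at 1191, 1309 and 1443 FPKM. Mertk was in the order of Tle3, at 7.65, 6.17 and 4.46 FPKM, and Fcgr1 was lowest in WT. In each comparison with WT 3 of the 9 macrophage genes were above 0 and 6 below. Endothelial markers summed to 24.0, 26.2 and 27.5 FPKM in the same 3 libraries, a sum carried by Pecam1, which macrophages also express, at 18.8, 22.4 and 24.9 FPKM. The other endothelial genes ran the other way, Cdh5 at 2.99, 2.30 and 1.31 FPKM and Kdr at 2.23, 1.55 and 1.30 FPKM, so that 2 of 3 were above WT in both comparisons. T cell markers summed to 76.5, 66.8 and 73.9 FPKM, carried by Cd4 at 72.8, 62.5 and 71.8 FPKM, while Cd3e, the other that passed the filter, was at 1.55, 1.70 and 0.401 FPKM. Monocyte markers summed to 24.4, 40.3 and 42.8 FPKM, with 1 of 3 above WT in the Tle3cKO-labelled library and 2 of 3 in Tle4cKO. Neutrophil markers summed to 189, 189 and 186 FPKM and eosinophil markers to 2.67, 3.14 and 2.90 FPKM. Of the eosinophil granule genes, Epx was listed at 0 in all 3 and Prg2 was at 0.191 FPKM in the Tle3cKO-labelled library, 1.06 in Tle4cKO and 0 in WT. Tle3 was at 1.83 times the WT level in the Tle3cKO-labelled library, where the marker sums lay between 0.570 times WT for monocytes and 2.12 times for epithelium, with 1.34 times for B and plasma cells and 1.23 times for stromal cells. Within the stromal list Tagln, Myh11, Acta2, Dcn and Col1a2 were in the same order as Tle3. In the Tle3cKO-labelled library, Tle4cKO and WT the smooth muscle gene Tagln was at 23.5, 18.2 and 12.7 FPKM. Myh11 was at 5.82, 4.47 and 3.35 FPKM and Acta2 at 12.8, 10.9 and 9.02 FPKM. Dcn was at 105, 90.4 and 81.8 FPKM and Col1a2 at 33.6, 32.6 and 29.3 FPKM. Other genes of that list were not in this order, namely Col1a1 at 26.1, 27.5 and 26.2 FPKM, Col3a1 at 59.8, 65.2 and 54.1 FPKM and Pdgfra at 3.70, 3.40 and 3.56 FPKM. The part of these cells in the family's values was not tested.

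**Figure D4:**
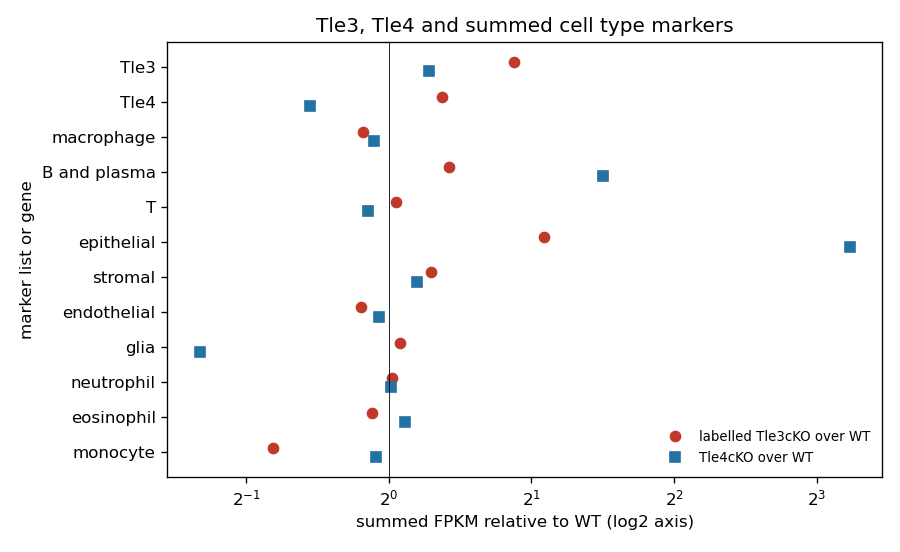
Levels relative to WT on a log2 axis for Tle3, Tle4 and the summed FPKM of each marker list (circles, Tle3cKO-labelled library over WT; squares, Tle4cKO over WT). In the Tle3cKO-labelled library Tle3 is at 1.83 times the WT level and Tle4 at 1.30 times, and in Tle4cKO they are at 1.21 and 0.682 times and glial markers at 0.40 times.

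Most of the DNA-binding factors that recruit TLE proteins and passed the filter were lower in the Tle4cKO library than in the WT library. Of 22 listed factors 12 passed the filter. In Tle4cKO against WT 2 of these 12 were above 0 and 10 below, where 50.6% of all genes were below. The median log2 ratio of the 12 was -0.17, and the 10 lay between -0.60 for Heyl and -0.03 for Runx3. With equal totals the counts were the same, where 56.3% of all genes were above 0. The lowest were the Notch-pathway repressors Heyl, at 0.889 FPKM in Tle4cKO and 1.87 in WT (log2 ratio -0.60), and Hey1, at 1.91 FPKM in Tle4cKO and 3.17 in WT (-0.52). Hes1, the abundant member of that group, was at 37.0 FPKM in Tle4cKO and 49.3 in WT (-0.41). Glial markers, which were lower in the same library, stood at 4.59 FPKM in Tle4cKO and 11.5 in WT, and their part was not tested.

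In the Tle3cKO-labelled library against WT 4 of the 12 factors were above 0 and 8 below, where 52.4% of all genes were below. The median of the 12 was -0.03. With libraries scaled to equal totals 7 were above and 5 below, where 68.4% of all genes were above. Tcf7, a Wnt-pathway factor of T cells that binds TLE proteins, had the highest log2 ratio in both comparisons with WT, 0.86 and 0.67, at 4.22 FPKM in the Tle3cKO-labelled library, 3.55 in Tle4cKO and 1.86 in WT. Pax5, the B cell identity factor that recruits Groucho proteins, followed at 2.34, 2.06 and 1.55 FPKM in the same libraries. The T cell gene Cd3e was at 1.55 FPKM in the Tle3cKO-labelled library, 1.70 in Tle4cKO and 0.401 in WT, and the B cell gene Cd79a at 33.9, 29.9 and 19.5 FPKM. The part of lymphocytes in the values of Tcf7 and Pax5 was not tested. Runx2 was at 19.9 FPKM in the Tle3cKO-labelled library and 25.6 in WT (-0.35), and Tcf7l2, the main TCF factor of the intestinal epithelium, at 4.03 FPKM in the Tle3cKO-labelled library and 5.41 in WT (-0.35). In Tle4cKO against the Tle3cKO-labelled library 3 of the 12 were above 0 and 9 below, where 47.6% of all genes were below. The median was -0.15, with Hey1 lowest (-0.79) and Runx2 highest (0.28). On FPKM plus 1 no factor reached 2-fold in any of the 3 comparisons, a scale that understates the differences of low genes such as Tcf7, Heyl and Hey1.

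Runx3 and Prdm1 were the most abundant recruiting factors in these macrophages. Runx3, which is needed in many leukocytes, was at 109 FPKM in the Tle3cKO-labelled library, 119 in Tle4cKO and 122 in WT. Prdm1, the repressor BLIMP-1, was at 66.6, 58.6 and 66.4 FPKM in the same libraries. Lef1 and Tcf7l1, the other TCF/LEF genes, stayed under 1 FPKM in every library.

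The enzymes and scaffolds that act with TLE proteins lay closer to WT than Tle3 or Tle4 did. All 13 listed corepressor partners passed the filter, with log2 ratios between -0.17 and 0.18 in the 2 comparisons with WT. Hdac1, a histone deacetylase bound by Groucho, was at 24.3 FPKM in the Tle3cKO-labelled library, 23.6 in Tle4cKO and 24.0 in WT. In the Tle3cKO-labelled library against WT 6 were above 0 and 7 below (median -0.0044), where 52.4% of all genes were below, and in Tle4cKO against WT 5 were above and 8 below (median -0.01), where 50.6% were. With equal totals 11 and 8 of them were above 0 in these comparisons, where 68.4% and 56.3% of all genes were. Their direction, like that of all genes, thus depends on the scaling. The lowest in both was Kdm1a, the histone demethylase LSD1, at 23.2 FPKM in the Tle3cKO-labelled library, 24.0 in Tle4cKO and 26.2 in WT. The highest was Tbl1xr1, a WD40 protein of the NCoR complex, at 15.8, 16.4 and 14.3 FPKM, followed in both by the scaffold gene Sin3a. In Tle4cKO against the Tle3cKO-labelled library 9 were above 0 and 4 below (median 0.03), from Ncor1 (-0.11) to Hdac3 (0.15), where 52.4% of all genes were above. With equal totals this turned round to 2 above and 11 below, where 36.4% of all genes were above.

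Of 5 kinases and ligases that modify TLE proteins, Hipk2, a nuclear kinase of Groucho, had the highest log2 ratio to WT, 0.28 in the Tle3cKO-labelled library and 0.14 in Tle4cKO, at 6.74, 6.02 and 5.36 FPKM in the Tle3cKO-labelled library, Tle4cKO and WT. Xiap, whose product ubiquitinates TLE3, was at 21.3, 22.9 and 23.0 FPKM. In each comparison with WT 2 of the 5 were above 0 and 3 below, against 52.4% and 50.6% of all genes below. With equal totals 3 were above in each, where 68.4% and 56.3% of all genes were. In Tle4cKO against the Tle3cKO-labelled library 4 were above and 1 below, where 52.4% of all genes were above. With equal totals 2 were above and 3 below there, where 36.4% of all genes were above.

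Wnt target genes, which TLE proteins can hold off together with TCF factors, were mostly too low to compare. Only 4 of 14 passed the filter. Myc was at 33.5 FPKM in the Tle3cKO-labelled library, 26.8 in Tle4cKO and 28.2 in WT. The cyclin gene Ccnd1 had log2 ratios of 0.03 and 0.07 to WT. The adhesion receptor gene Cd44 was at 216, 229 and 216 FPKM and Znrf3 at 1.16, 1.09 and 1.11 FPKM in the same libraries. Axin2, a direct target used as a readout of Wnt signalling, was at 0.772 FPKM in the Tle3cKO-labelled library, 0.444 in Tle4cKO and 0.463 in WT. All 4 that passed were above 0 in the Tle3cKO-labelled library against WT, where 47.6% of all genes were, with a median of 0.03, and 2 of 4 in Tle4cKO against WT, where 49.4% were.

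**Figure D5:**
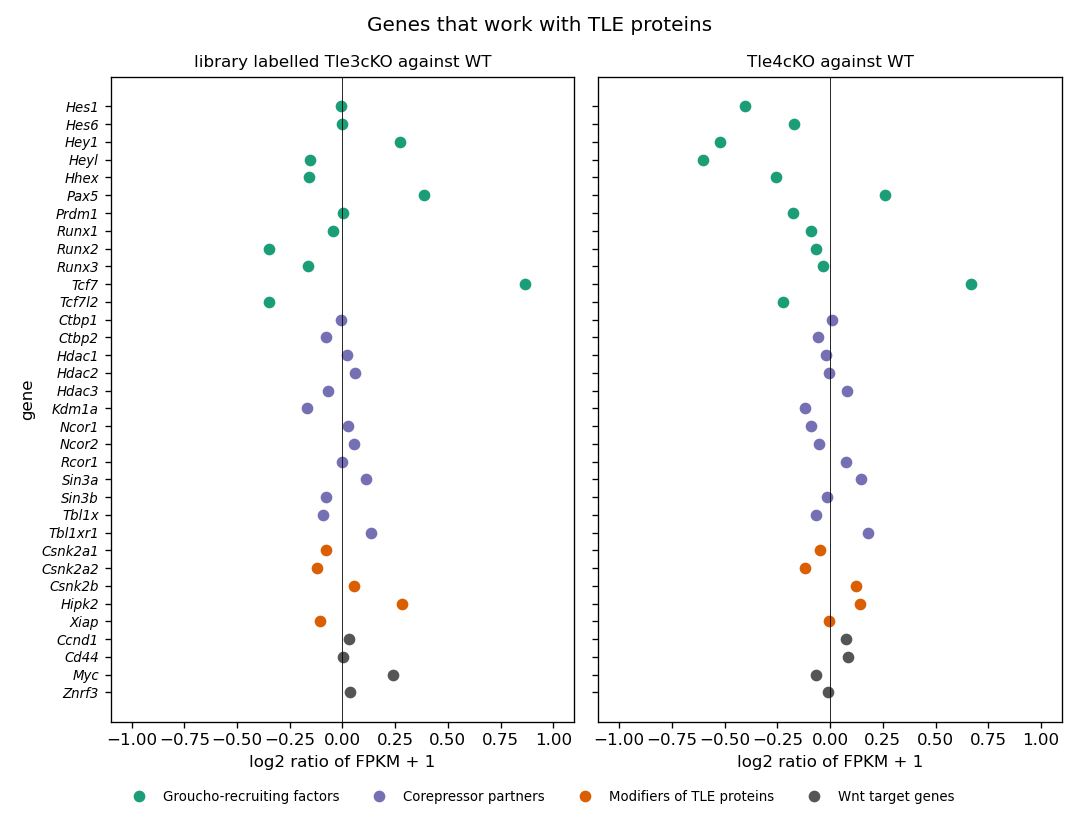
Log2 ratios of FPKM plus 1 for the tested genes of 4 lists (recruiting factors, corepressor partners, modifiers of TLE proteins and Wnt targets), in the Tle3cKO-labelled library against WT and in Tle4cKO against WT, with 1 point for each gene. Tcf7 is highest in both panels at 0.86 and 0.67, and the corepressor partners lie between -0.17 and 0.18.

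The genes whose pattern over the 3 libraries was most like that of Tle3 were found by the distance between pairs of log2 ratios to WT, over 7307 named genes whose mean reached 5 FPKM. The nearest were Cyp1b1, a cytochrome P450, at 9.81 FPKM in the Tle3cKO-labelled library, 6.63 in Tle4cKO and 5.04 in WT, and then Lphn2, Ppp1r14a and Il22ra2. Il22ra2, which encodes the secreted decoy receptor of IL-22, was the most abundant of them at 33.7, 23.5 and 17.9 FPKM. For Tle4 the nearest were the cytoskeletal linker gene Dst, at 12.3, 6.40 and 9.62 FPKM in the same libraries, then the formyl peptide receptor gene Fpr2, the clock repressor gene Nr1d1 and the protease inhibitor gene Timp3. Within a distance of 0.2 there were 11 genes around Tle3 and 18 around Tle4. With 3 libraries this likeness rests on a pair of differences that share the WT library.

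The genes next to Tle3 lay closer to WT than Tle3 itself. Within 500000 bases of Tle3, 3 other genes passed the filter. Uaca was at 3.14 FPKM in the Tle3cKO-labelled library, 2.77 in Tle4cKO and 2.44 in WT, Kif23 at 4.67, 4.45 and 4.67 FPKM and Rplp1 at log2 ratios of -0.07 and 0.07 to WT. No other gene within that distance of Tle4 passed. Around Aes, Tle2 and Tle6, 26 other genes passed, of which 7 were above 0 and 19 below in the Tle3cKO-labelled library against WT (median -0.08, from -0.50 for Smim24 to 0.27 for Sirt6), where 52.4% of all genes were below. With equal totals 14 were above and 12 below, where 68.4% of all genes were above. In Tle4cKO against WT 12 of them were above 0 and 14 below, where 50.6% of all genes were below, with a median of -0.02.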

How the data were processed

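The authors deposited FPKM per gene, per the file headers, in 1 table for each of 3 libraries with the same 23997 rows. The submitters' processing notes name TopHat2 2.1.0, Cufflinks 2.2.1 and mm10, and do not say which step each served. Libraries were grouped by their titles. FPKM divides by transcript length and by depth, so a few abundant genes can lower the rest. The 10 highest genes held between 16.6% and 18.9% of each total. Cufflinks can divide reads among similar genes, which bears on paralogues such as these.

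A pseudocount of 1 was added to FPKM before log2 ratios were taken, for 11114 genes whose mean reached 1 FPKM. With 1 library per group no test was made. Relative depth was taken from the most common ratio of values under 0.3 FPKM. FPKM are not counts, and without the depth no interval for counting error can be had. The calculation was tested on simulated data. Alternatives were a pseudocount of 0.1 or 5, a filter at 5 FPKM or none, 2 scalings, removal of the trend with gene span over 20 bins, and Aes and Tle6 in the summed pool.

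The members and lists were chosen with earlier results of these data known. Named genes were the members, the 2 highest and 2 lowest log2 ratios of each list and comparison, the 4 genes nearest to Tle3 and to Tle4, neighbours within 500000 bases, and genes of the sort. Other genes of the lists, namely Hes1, Runx3, Prdm1, Lef1, Tcf7l1, Hdac1, Axin2, Cd3e, Cd79a, Epx and Prg2, were named after their values were seen, and some that the rule takes are summarised only. Adgre1 and Siglecf were matched to the rows Emr1 and Siglec5 by RefSeq synonyms. A listed glial marker is not reported here and enters no sum. Promoters came from RefSeq (GRCm38.p6). Software was numpy 2.4.6, pandas 2.3.3 and matplotlib 3.10.9 under Python 3.11.15.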

Additional observations from a re-analysis of the deposited data

How the results depend on the processing

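No paired analysis was possible because each group is 1 library. No member's log2 ratio changed sign under any alternative run. For Tle3 in the Tle3cKO-labelled library against WT the log2 ratio was 0.87 with a pseudocount of 0.1, 0.80 with one of 5, 0.96 with equal totals and 0.88 with median-ratio scaling. For Tle4 in that comparison it was 0.37, 0.25, 0.43 and 0.36 in the same order, and 0.31 with the span trend removed. In Tle4cKO against WT, Tle3 was at 0.28 with a pseudocount of 0.1, 0.25 with one of 5, 0.30 with equal totals and 0.28 with the span trend removed, and Tle4 at -0.54, -0.32, -0.46 and -0.47. In Tle4cKO against the Tle3cKO-labelled library, Tle3 was at -0.59, -0.55, -0.65 and -0.59 in the same order and Tle4 at -0.91, -0.57, -0.88 and -0.78, and with median-ratio scaling they were at -0.61 and -0.84. The filter at 5 FPKM removed Tle2 and Tle6, and of the 4 members left 3 were above 0 in the Tle3cKO-labelled library against WT, 1 in Tle4cKO against WT and 1 in Tle4cKO against the Tle3cKO-labelled library. Of all genes under that filter 43.6%, 49.6% and 56.5% were above 0 in these comparisons. With Aes and Tle6 in the sum, Tle3 held 35.7% in the Tle3cKO-labelled library, 28.7% in Tle4cKO and 23.1% in WT. Equal totals moved the share of all genes above 0 to 68.4% in the Tle3cKO-labelled library against WT and to 36.4% in Tle4cKO against the Tle3cKO-labelled library. The depth in fragments is unknown, so how far counting alone could move the low genes Tle2 and Tle6 cannot be stated.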

Other observations

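Genes outside the family that carry the same 10-base palindrome before a RefSeq start lay on both sides of WT in the Tle3cKO-labelled library, in which Tle3, Tle4 and Tle6 were above it. Of the 29 genes with CCCACGTGGG, 26 were not family members, and 12 of these passed the filter. In the Tle3cKO-labelled library against WT 3 of the 12 were above 0 and 9 below, with log2 ratios between -0.29 and 0.13 and a median of -0.06, where 52.4% of all genes were below 0. With equal totals 7 of the 12 were above 0 and 5 below. That scaling puts 68.4% of all genes above 0 in this comparison and moves their median to 0.079. Gadd45b, a stress-induced gene, was the most abundant at 280.2 FPKM in the Tle3cKO-labelled library, 251 in Tle4cKO and 318 in WT, and the Notch modifier Lfng was at 34.7, 36.9 and 35.5 FPKM. Nrarp, a Notch target and feedback regulator, was at 1.34, 2.2 and 1.14 FPKM in the same libraries. Its log2 ratio of 0.58 in Tle4cKO against WT was the highest of the 12. In that comparison 6 of the 12 were above 0 and 6 below, where 49.4% of all genes were above. These genes were chosen by the sequence alone, and those named here after their values were seen.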
